A study of Mus musculus with 12 samples.

Results

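The glucose, lactate, amino acid and iron transporters described here are 10 genes, Slc2a1, Slc2a3, Slc5a9, Slc16a1, Slc16a3, Slc7a5, Slc3a2, Slc1a5, Slc38a2 and Tfrc. They are 10 of the 18193 genes the array named with a single symbol. They were chosen by name, with earlier results of these data known. Every probe set whose only gene symbol in the platform annotation is one of the 10 was taken, which gave 27 of the 45101 probe sets on the array. Of the 27, 3 are Affymetrix control probe sets for Tfrc. Of the other 24, 21 passed a filter on low signal and were tested, covering 9 genes, and 3 did not. Slc16a3 had only 1 probe set, and it was below the filter on all 12 arrays.

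Immature T cells that carry neither CD4 nor CD8 were sorted from the thymus at the DN4, DN3 and DN2 stages, with 4 arrays a stage. DN4 cells were CD44- CD25-, DN3 cells CD44- CD25+ and DN2 cells CD44+ CD25+, and cells bearing CD4, CD8, CD3, NK1.1 or TCRγδ were gated out at every stage. The thymocytes came from untreated female C57BL/6 mice aged 5 to 6 weeks, 16 animals in all. Each of the 4 sorts pooled 4 mice and supplied all 3 stages, so an array of one stage has a partner from the same animals in each of the others. A stage is a gate on surface proteins, so a sample can hold cells of several kinds. In such bulk samples fewer cells of a type and less RNA per cell cannot be told apart.

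Thymocytes at the DN3 stage test whether they have made a working T cell receptor beta chain, and those that pass, through signals of the pre-T cell receptor and Notch, enlarge, divide and become DN4 cells. Dividing lymphocytes take up more glucose, amino acids and iron and export lactate, each through carriers in the plasma membrane. The heavy chain of CD98, encoded by Slc3a2, and the transferrin receptor CD71, encoded by Tfrc, are commonly stained at the surface as signs that a cell has passed. The comparison of the 3 stages asks how the transcripts of these carriers differ between them.

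Of the 10 genes, Slc5a9 and Slc16a1 had the clearest differences between stages. Slc5a9, a sodium-coupled sugar carrier, was highest at DN3 in every sort. Slc16a1, the monocarboxylate carrier MCT1, was higher at DN3 than at DN2, and was 2.17-fold higher at DN4 than at DN2. Slc2a1, Slc2a3, Slc7a5, Slc3a2, Slc1a5 and Slc38a2, which serve the uptake of glucose and amino acids, did not pass the test in any comparison. When the sort was added as a block, which compares stages within the same animals, 1 probe set each of Slc7a5, Slc2a1 and Slc2a3 passed in 1 comparison. Tfrc gave different answers on different probe sets.

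Promoter sequence is shown for Slc16a1, the carrier whose brightest probe set passed the test with high signal at every stage, and for Slc2a1, a glucose carrier that did not pass, because 1 window holds the motif CACGTG and the other does not. Each is the 250 bases before the annotated start on the plus strand, from RefSeq on GRCm38.p6, at chr3:104638414-104638663 for Slc16a1 and chr4:119108495-119108744 for Slc2a1. Capitals mark the motif CACGTG, the E-box form bound by Myc and related factors, in the Slc16a1 window, and ACGTG, the core of sites bound by hypoxia-inducible factors, in the Slc2a1 window.
Slc16a1 promoter: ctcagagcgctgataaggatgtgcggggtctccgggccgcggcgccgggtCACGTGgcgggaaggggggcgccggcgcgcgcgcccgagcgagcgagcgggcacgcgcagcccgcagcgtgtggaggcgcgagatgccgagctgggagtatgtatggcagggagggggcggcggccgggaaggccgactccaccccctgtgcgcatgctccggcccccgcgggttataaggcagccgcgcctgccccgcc
Slc2a1 promoter: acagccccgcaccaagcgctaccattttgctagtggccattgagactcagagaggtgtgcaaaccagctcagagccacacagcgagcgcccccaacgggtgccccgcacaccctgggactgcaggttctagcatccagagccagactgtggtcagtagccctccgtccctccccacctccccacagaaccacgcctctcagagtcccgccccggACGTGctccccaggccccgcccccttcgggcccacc
CACGTG lay at position -200 from the start of Slc16a1 and was not in the Slc2a1 window. ACGTG, which every CACGTG also contains, lay at -36 in the Slc2a1 window. Both strands were searched in 32851 windows of the same length, of which 6.02% held CACGTG and 16.6% held ACGTG. A match says only that the letters are there. Windows were found for 6 of the 10 genes, and CACGTG was found in that of Slc16a1. ACGTG was also in the windows of Slc16a3, of Slc3a2, at -164, and of a second start of Tfrc, at -228. The windows at the outermost annotated starts of Slc38a2 and Tfrc held neither motif.

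Signals below are probe set intensities after quantile normalization, in arbitrary units, listed for sorts 1, 2, 3 and 4 in that order. Differences are on the log2 scale of the signal plus an offset of 5.69, later stage minus earlier stage, with their standard error from limma. A difference is called when its Benjamini-Hochberg adjusted p over the 24107 tested probe sets is under 0.05. The brightest probe set of a gene is given first, and a level is never set against that of another probe set. The filter asked for a signal above 20.6 on at least 4 arrays.

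Between DN3 and DN2, 5 of the 21 tested transporter probe sets were higher and 0 were lower, against 3.16% and 3.99% of all tested probe sets. The 5 belong to 2 genes, with 4 of them measuring Slc5a9, so they are not separate observations. Without adjustment, at a p under 0.05, 8 were higher and 1 was lower, against 10.8% and 9.93% of all. Limma with the sort as a block called 5 higher and 1 lower, against 7.48% and 7.35% of all. Between DN4 and DN3, 0 were higher and 3 were lower, all 3 of Slc5a9, against 4.42% and 6.83% of all. The unadjusted counts there were 3 higher and 5 lower, against 13.2% and 13.7% of all, and the blocked counts 0 and 5, against 10.8% and 12.3% of all. Between DN4 and DN2, 5 were higher, from 3 genes, and 0 were lower, against 14.1% and 13.1% of all. Unadjusted, 11 were higher and 1 was lower, against 21.0% and 17.9% of all, and with the block 9 and 1, against 20.9% and 18.4% of all. Groups of arrays that did not overlap were counted in the same way. DN3 was wholly above DN2 on 8 and wholly below on 1 of the 21, against 7.30% and 7.26% of all tested probe sets. DN4 was wholly above DN3 on 2 and below on 4, against 10.3% and 9.98%, and wholly above DN2 on 5 and below on 2, against 14.6% and 13.0%. The median difference of the 21 was 0.25, -0.04 and 0.28 in the 3 comparisons, against 0.03, 0.03 and 0.05 over all tested probe sets. Several Slc5a9 probe sets passed the filter through their DN3 arrays, and Slc16a1 on 1446274_at through its DN3 and DN4 arrays. Passing in that way by itself makes a difference likely, so these counts describe the probe sets and support nothing further.

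**Figure D1:**
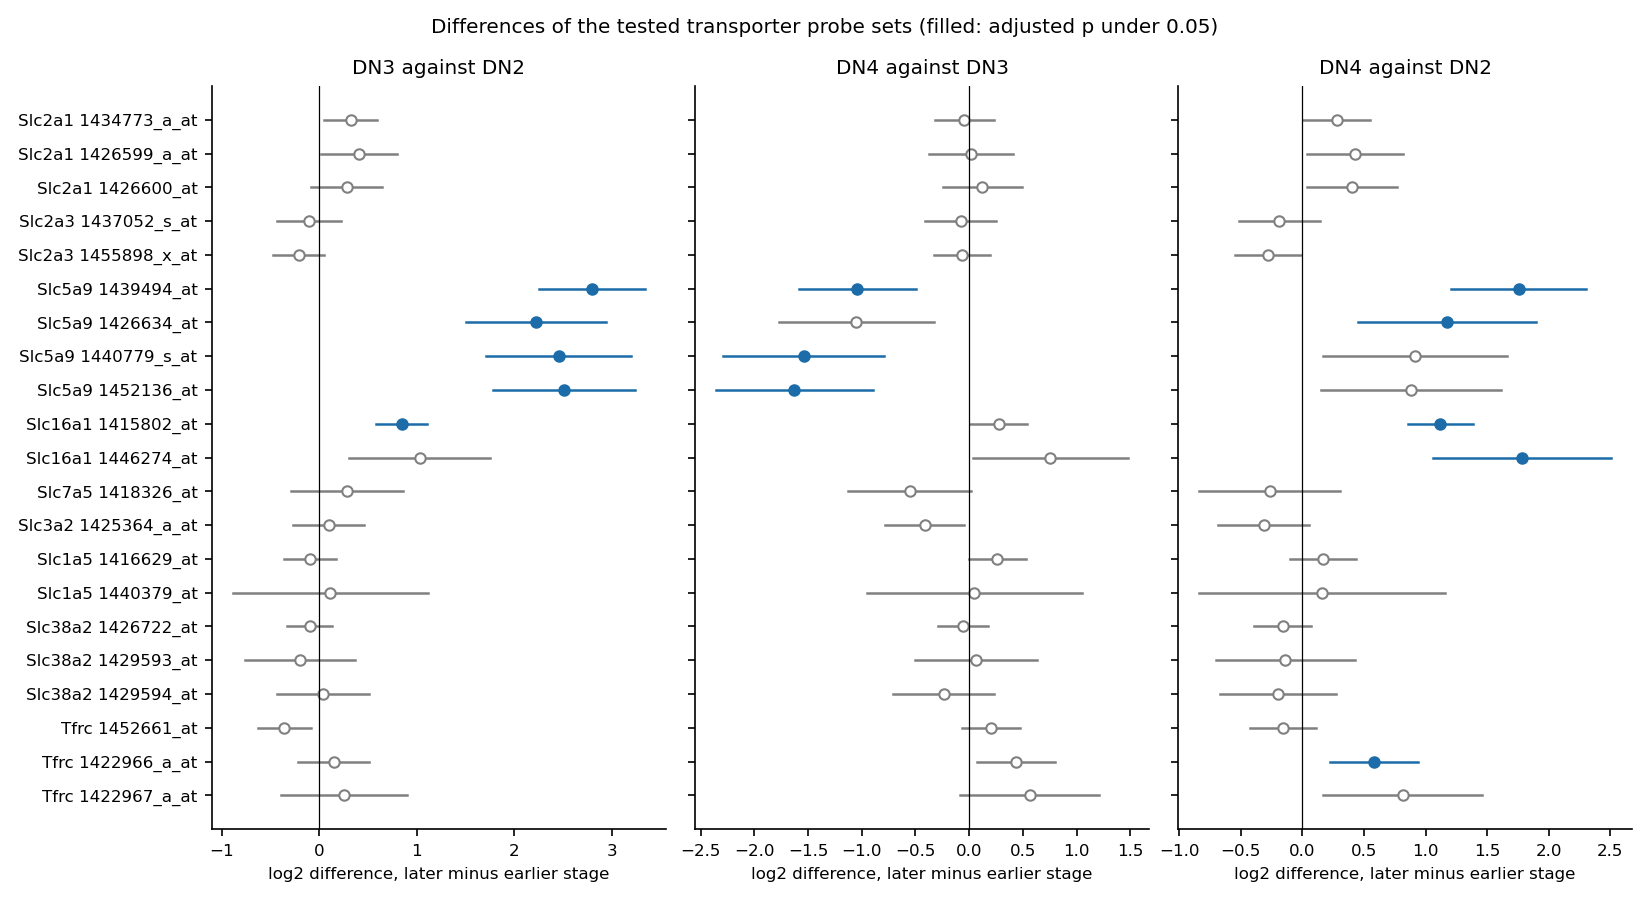
Differences of the 21 tested transporter probe sets on the log2 scale, later minus earlier stage, with 95% intervals from limma (n = 4 arrays a stage). Filled points have an adjusted p under 0.05: 5 in the panel of DN3 against DN2, 3 in DN4 against DN3 and 5 in DN4 against DN2. The Slc5a9 points lie above 0 in the first panel and below 0 in the second.

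The sugar carrier Slc5a9 encodes SGLT4, which in other tissues moves mannose and related sugars with sodium. Its brightest probe set, 1439494_at, had signals of 11.6, 21.5, 24.7 and 12.3 at DN2, 131, 119, 216 and 154 at DN3, and 54.6, 61.7, 70.4 and 102 at DN4. Every DN3 array was above every DN4 array, and every DN4 array above every DN2 array. DN2 signals lay around the filter. DN3 was higher than DN2 by 2.80 ± 0.25 (adjusted p = 3.15e-05), which is at least 5.96-fold when DN2 is held at the filter level. DN4 was 2.06-fold lower than DN3, a difference of -1.04 ± 0.25 (adjusted p = 0.021), and the same direction held in all 4 sorts. That call between DN4 and DN3 was lost without DN3 replicate 3 (adjusted p = 0.0586), DN4 replicate 1 (0.0556) or DN4 replicate 2 (0.0529), and over the alternatives its adjusted p ran between 0.00122 and 0.145. DN4 was above DN2 by 1.76 ± 0.25 (adjusted p = 3.39e-04), at least 2.90-fold.

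The other probe sets of Slc5a9 were dimmer and followed the same order of stages in their means. Probe set 1426634_at had 7.7, 9.9, 18.5 and 5.4 at DN2, 39.6, 66.7, 89.8 and 79.2 at DN3, and 13.3, 31.0, 40.2 and 39.8 at DN4. All 4 DN2 values were below the filter. DN3 was at least 2.74-fold higher than DN2 with DN2 held at the filter level, the fitted difference being 2.23 ± 0.33 (adjusted p = 0.00156). Its DN4 arrays overlapped those of both neighbouring stages at the edges. The fall to DN4 was -1.05 ± 0.33 and was not called without the block (adjusted p = 0.0622) but was with the sort as a block (0.0109). DN4 was at least 1.32-fold higher than DN2 (fitted difference 1.18 ± 0.33, adjusted p = 0.0202), a call that was lost without normalization between arrays (0.84, adjusted p = 0.074) and without DN2 replicate 1, DN2 replicate 4, DN4 replicate 3 or DN4 replicate 4.

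Probe sets 1440779_s_at and 1452136_at passed the filter through DN3 arrays with little help from other stages. For 1440779_s_at the signals were 4.6, 5.7, 4.9 and 3.1 at DN2, 46.7, 33.2, 72.4 and 56.7 at DN3, and 6.7, 19.7, 32.0 and 5.9 at DN4. For 1452136_at they were 2.4, 3.3, 2.4 and 2.6 at DN2, 39.1, 30.0, 50.4 and 51.3 at DN3, and 12.3, 4.3, 3.7 and 27.7 at DN4. On both, all DN3 arrays were above all DN4 arrays, and the DN2 arrays were below the filter. With the dimmer stage held at the filter level, DN3 was at least 2.14-fold higher than DN2 on 1440779_s_at and at least 1.81-fold higher on 1452136_at, and the same bounds hold for DN3 over DN4. The fitted DN3 minus DN2 differences, 2.46 ± 0.34 and 2.51 ± 0.34 (adjusted p = 9.98e-04 and 7.42e-04), depend on the offset and on DN2 values under the filter. The fitted DN4 minus DN3 differences were -1.54 ± 0.34 and -1.63 ± 0.34 (adjusted p = 0.0144 and 0.0101), with the mean DN4 level also under the filter. Between DN4 and DN2 both missed the threshold (adjusted p = 0.0669 and 0.0707) and passed it with the sort as a block (0.0432 and 0.049).

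**Figure D2:**
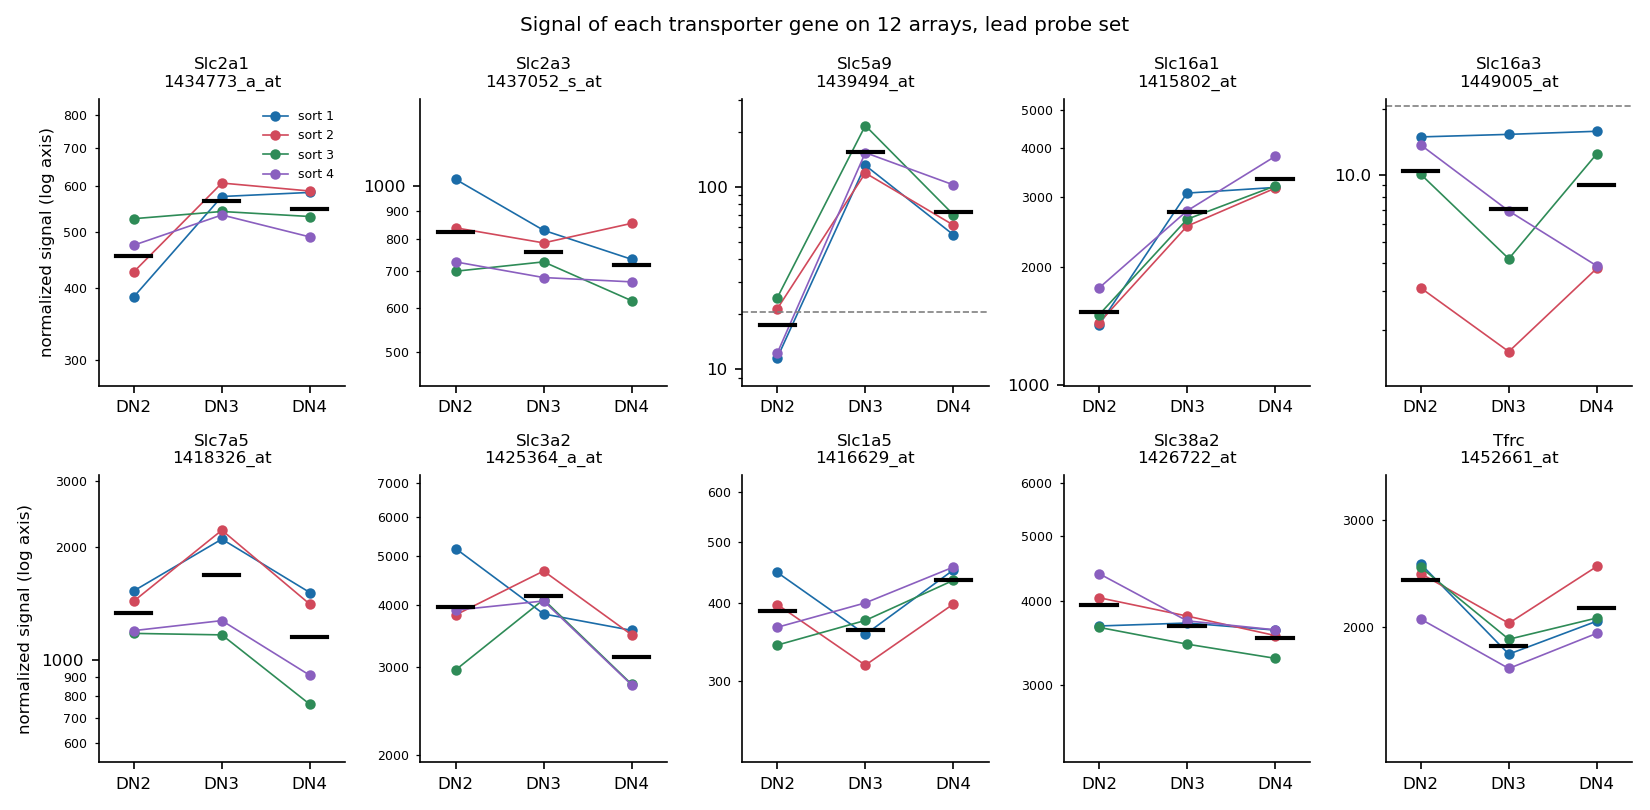
Normalized signal of the brightest probe set of each of the 10 genes at DN2, DN3 and DN4, on a log axis that differs between panels. Points joined by a line come from one sort and black bars are arithmetic means of the signal. Dashed lines mark the filter at 20.6. Slc5a9 is highest at DN3 in all 4 sorts, Slc16a1 is lowest at DN2 in all 4, and Slc16a3 lies under the filter on all 12 arrays.

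The glucose carrier Slc2a1, known as GLUT1, is the main one by which activated lymphocytes take up glucose. Its probe sets were not called in any comparison by the fit without the block. On 1434773_a_at the signals were 386, 427, 528 and 474 at DN2, 576, 608, 543 and 535 at DN3, and 586, 589, 532 and 490 at DN4. All DN3 arrays were above all DN2 arrays, with gaps in sorts 1 and 2 of 0.57 and 0.51 on the log2 scale and in sorts 3 and 4 of 0.04 and 0.17. The difference of 0.32 ± 0.13 was not called (adjusted p = 0.162, 95% interval 0.05 to 0.60). DN4 minus DN3 was -0.04 ± 0.13 (adjusted p = 0.859, interval -0.32 to 0.23). DN4 minus DN2 was 0.28 ± 0.13 (adjusted p = 0.121, interval 0.006 to 0.55), with 0.59, 0.46, 0.01 and 0.05 in sorts 1 to 4.

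Both other Slc2a1 probe sets were higher at DN3 and at DN4 than at DN2 in all 4 sorts, without a call in the fit without the block. Probe set 1426599_a_at had 164, 227, 214 and 231 at DN2, 338, 295, 248 and 238 at DN3, and 376, 271, 226 and 269 at DN4. All its DN3 arrays were above all its DN2 arrays, by 0.41 ± 0.18 (adjusted p = 0.218). Its DN4 minus DN2 difference was 0.43 ± 0.18 (adjusted p = 0.0987). Probe set 1426600_at had 147, 206, 158 and 165 at DN2, 192, 239, 199 and 194 at DN3, and 240, 280, 164 and 227 at DN4. The stages overlapped on it, and its DN4 minus DN2 difference of 0.40 ± 0.17 was not called without the block (adjusted p = 0.097) but was with the sort as a block (0.0248).

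Slc2a3 encodes GLUT3, the high-affinity glucose carrier of neurons and lymphocytes. On 1437052_s_at the signals were 1028, 839, 700 and 728 at DN2, 830, 788, 728 and 681 at DN3, and 736, 855, 618 and 669 at DN4. The 3 stages overlapped, and the differences were -0.11 ± 0.15 for DN3 minus DN2 and -0.08 ± 0.15 for DN4 minus DN3 (adjusted p = 0.76 and 0.787). On 1455898_x_at the signals were 338, 321, 306 and 310 at DN2, 314, 271, 287 and 230 at DN3, and 295, 255, 248 and 249 at DN4. Its DN4 arrays were all below its DN2 arrays, by -0.28 ± 0.12, which was not called without the block (adjusted p = 0.109) and was called with the sort as a block (0.0352). The other Slc2a3 probe sets, 1427770_a_at and 1421924_at, were below the filter on all 12 arrays and were not tested.

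Slc16a1 encodes MCT1, a proton-coupled carrier that moves lactate, pyruvate and ketone bodies in either direction. On 1415802_at the signals were 1421, 1439, 1509 and 1765 at DN2, 3074, 2534, 2638 and 2771 at DN3, and 3178, 3163, 3205 and 3810 at DN4. The 3 stages did not overlap, and every sort was higher at each later stage. DN3 exceeded DN2 by 0.84 ± 0.12, or 1.80-fold (adjusted p = 0.00124, 95% interval 0.58 to 1.11), with 1.11, 0.81, 0.80 and 0.65 in sorts 1 to 4. DN4 exceeded DN2 by 1.12 ± 0.12 (adjusted p = 4.45e-05), with 1.16, 1.13, 1.08 and 1.11 in the sorts, so the sorts agreed closely on the size. DN4 minus DN3 was 0.28 ± 0.12 and was not called (adjusted p = 0.167, interval 0.01 to 0.54), with 0.05, 0.32, 0.28 and 0.46 in sorts 1 to 4. Over 25 alternatives this step ran between 3.6e-04 and 0.52 and was called in 0, so its size depends on the processing. With only 2 sorts, 1 and 2 or 3 and 4, the DN3 against DN2 call was lost (0.93 and 0.75, adjusted p = 0.0786 and 0.0873).

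A dim second Slc16a1 probe set, 1446274_at, had 2.4, 16.1, 15.5 and 8.5 at DN2, 21.9, 43.0, 20.0 and 21.1 at DN3, and 52.2, 27.7, 60.6 and 52.6 at DN4. All DN3 and all DN4 arrays were above the DN2 arrays, which were below the filter. The probe set passed the filter through its DN3 and DN4 arrays, which by itself makes a difference from DN2 likely. DN4 exceeded DN2 by 1.79 ± 0.33 (adjusted p = 0.00205), at least 1.99-fold. Its DN3 minus DN2 difference of 1.03 ± 0.33 was not called (adjusted p = 0.0892).

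Slc16a3, the monocarboxylate carrier MCT4 used for lactate export in highly glycolytic cells, had 14.9, 3.1, 10.1 and 13.7 at DN2, 15.3, 1.6, 4.2 and 6.9 at DN3, and 15.8, 3.8, 12.5 and 3.9 at DN4 on 1449005_at. All 12 values were below the filter, so no difference is given.

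Slc7a5 and Slc3a2 encode the light and heavy chains of a single carrier, LAT1 with CD98, which exchanges large neutral amino acids such as leucine. Slc7a5 on 1418326_at had 1526, 1433, 1175 and 1196 at DN2, 2097, 2215, 1164 and 1271 at DN3, and 1510, 1406, 760 and 908 at DN4. Sorts 1 and 2 were above sorts 3 and 4 at every stage, which made the standard error across sorts large. DN4 minus DN3 was -0.55 ± 0.26 with -0.47, -0.65, -0.61 and -0.48 in sorts 1 to 4. It was not called without the block (adjusted p = 0.201) and was called with the sort as a block (0.0167). DN3 minus DN2 was 0.29 ± 0.26 (adjusted p = 0.606), with sorts 1 and 2 carrying most of it.

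Slc3a2 on 1425364_a_at had 5180, 3816, 2963 and 3901 at DN2, 3834, 4671, 4096 and 4070 at DN3, and 3555, 3483, 2775 and 2766 at DN4. All DN4 arrays were below all DN3 arrays, while DN3 and DN2 overlapped. DN4 minus DN3 was -0.41 ± 0.17 and was not called (adjusted p = 0.141), with -0.11, -0.42, -0.56 and -0.56 in sorts 1 to 4. Both chains had lower means at DN4 than at DN3. Neither passed without the block, Slc7a5 passed in the blocked fit, and both passed without normalization between arrays (adjusted p = 0.0258 for Slc7a5 and 0.0343 for Slc3a2). Without normalization the median DN4 minus DN3 difference of all tested probe sets was itself -0.44, with 54 called higher and 5129 lower. A lower call in that setting therefore says little about these 2 genes.

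Slc1a5 encodes ASCT2, a sodium-dependent exchanger known for glutamine. On 1416629_at it had 447, 397, 342 and 366 at DN2, 356, 318, 375 and 400 at DN3, and 451, 398, 434 and 456 at DN4. The stages overlapped, and DN4 minus DN3 was 0.26 ± 0.12 (adjusted p = 0.192). Its dim probe set 1440379_at ran between 2.8 and 42.2 over the 12 arrays, with a standard error of 0.46, and was not called.

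Slc38a2 encodes SNAT2, a sodium-coupled carrier of small neutral amino acids whose transcript is known to rise when amino acids are short. On 1426722_at it had 3676, 4050, 3659 and 4398 at DN2, 3713, 3803, 3454 and 3741 at DN3, and 3625, 3558, 3291 and 3628 at DN4. All DN4 arrays were below all DN2 arrays, but the difference was only -0.16 ± 0.11 (adjusted p = 0.298, interval -0.39 to 0.07). Probe sets 1429593_at and 1429594_at, at 519 to 1075 and 25.9 to 58.0, were not called in any comparison.

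Tfrc encodes the transferrin receptor CD71, which brings iron into cells by endocytosis of transferrin. Its probe sets did not move alike. The brightest, 1452661_at, had 2536, 2445, 2505 and 2058 at DN2, 1801, 2026, 1906 and 1706 at DN3, and 2042, 2513, 2066 and 1950 at DN4. All DN3 arrays were below all DN2 arrays, by -0.36 ± 0.12, with -0.49, -0.27, -0.39 and -0.27 in sorts 1 to 4. That difference was called only with the sort as a block (adjusted p = 0.116 without the block and 0.031 with it) or with a robust, trended limma fit (0.0436). DN4 minus DN2 was -0.16 ± 0.12 (adjusted p = 0.385).

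On the dimmer probe set 1422966_a_at Tfrc had 158, 86.3, 107 and 93.1 at DN2, 122, 124, 123 and 113 at DN3, and 163, 151, 184 and 162 at DN4. DN4 exceeded DN2 by 0.58 ± 0.17 (adjusted p = 0.0214), with 0.04 in sort 1 and 0.77, 0.75 and 0.76 in sorts 2 to 4. DN2 replicate 1 therefore sat with the DN4 arrays, and the call was lost in 8 of the 23 settings that measured it, among them no normalization between arrays (0.12, adjusted p = 0.806) and leaving out DN2 replicate 2, DN2 replicate 4 or DN4 replicate 3. DN4 minus DN3 was 0.43 ± 0.17 (adjusted p = 0.114) with no overlap of arrays. Probe set 1422967_a_at, near the filter, had 13.2, 8.1, 27.8 and 14.2 at DN2, 19.2, 17.4, 20.7 and 17.4 at DN3, and 37.3, 27.2, 50.1 and 15.5 at DN4. Its DN4 minus DN2 difference of 0.81 ± 0.30 was not called without the block (adjusted p = 0.0609) but was with the sort as a block (0.0193).

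The Affymetrix control probe set for the 3′ end of Tfrc, which was not tested, had 87.4, 66.6, 65.9 and 86.4 at DN2, 89.6, 81.7, 92.0 and 88.9 at DN3, and 113, 92.6, 108 and 110 at DN4. Its DN4 arrays were all above those of the other stages. The controls for the 5′ end and the middle ran between 2.8 and 24.6. Erythroid precursors carry much transferrin receptor, and the summed signal of 7 measured erythroid markers was 91.7 to 114 at DN2, 89.4 to 148 at DN3 and 155 to 205 at DN4. Of the 7, Rhag was below the filter on all 12 arrays, Hba-a2 was the brightest, and 0 of the 2 that could be tested were called by limma in any comparison, with or without the block. At an unadjusted p under 0.05, 1 of them was higher at DN4 than at DN3 and than at DN2. The part of such cells in the Tfrc values was not tested.

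**Figure D3:**
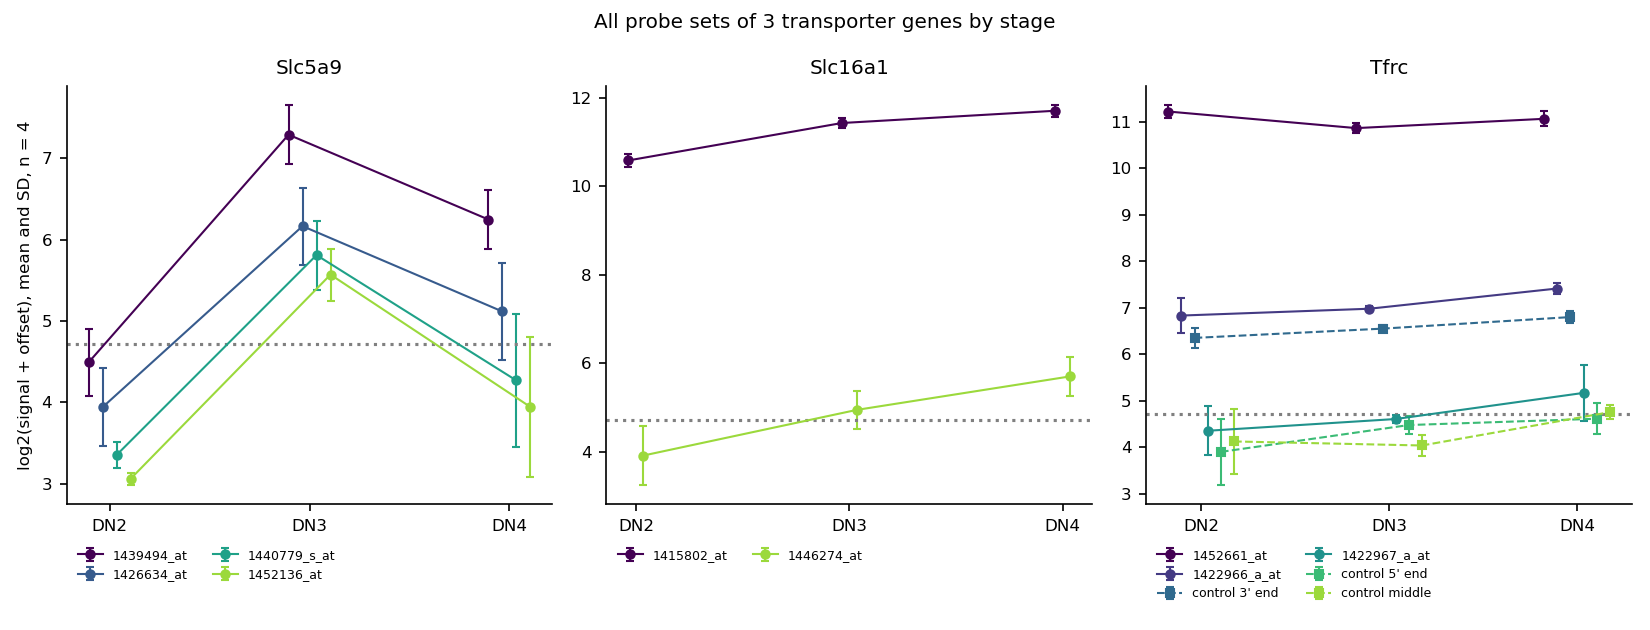
Mean and SD over 4 arrays of log2(signal + 5.69) for every probe set of Slc5a9, Slc16a1 and Tfrc at DN2, DN3 and DN4; squares with dashed lines are the control probe sets and the dotted line is the filter at 4.71. The 4 probe sets of Slc5a9 peak at DN3 and the means of both Slc16a1 probe sets are higher at each later stage, while the brightest Tfrc probe set is lowest at DN3 and 1422966_a_at is highest at DN4.

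The genes whose brightest probe set was most like that of each called carrier over the 12 arrays were taken from 11165 others. For Slc5a9 they were Mtf2 (Pearson r = 0.964), Rag1 (0.957) and Vwce (0.956). Rag1, which cuts DNA for receptor gene rearrangement, had mean log2 levels of 10.02 at DN2, 12.18 at DN3 and 11.42 at DN4. For Slc16a1 they were Atg3 (0.983), Lyar (0.980) and Cds2 (0.979). Lyar, a nucleolar protein, had mean log2 levels of 10.41 at DN2, 11.15 at DN3 and 11.49 at DN4. These correlations describe arrays that share stages and sorts, and carry no test.

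Other genes of the same transport pathways were read from lists, with the brightest probe set of each gene. Over all 11166 such probe sets the called shares were 3.71% higher and 5.39% lower for DN3 against DN2, 5.51% and 7.75% for DN4 against DN3, and 16.0% and 15.4% for DN4 against DN2. Blocked and unadjusted shares are at hand only over all 24107 tested probe sets. With the block they were 7.48% and 7.35%, 10.8% and 12.3%, and 20.9% and 18.4% in the same order. Unadjusted, they were 10.8% and 9.93%, 13.2% and 13.7%, and 21.0% and 17.9%. Among other glucose and sugar transporters, 6 of 15 were bright enough to test. None of the 6 was called by limma for DN3 against DN2. An unadjusted p was under 0.05 for 1 higher and 1 lower gene, and the blocked fit called as many. Slc5a3, a sodium-coupled myo-inositol carrier, was lower at DN4 than at DN3 (-0.67 ± 0.17, adjusted p = 0.0275), a call lost in several alternatives, among them leaving out DN3 replicate 2 or 3 or DN4 replicate 1 or 2. With the sort as a block Slc45a4 was lower in that comparison too (-0.84, adjusted p = 0.0165). Slc45a4 was lower at DN4 than at DN2 (-1.83 ± 0.31, adjusted p = 0.00112). The list's median difference was -0.01, -0.49 and -0.30 in the 3 comparisons, against 0.02, 0.05 and 0.06 over all genes.

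Of the monocarboxylate carriers and their chaperones 15 were measured and 8 tested, and 3 were higher and 1 lower at DN3 than at DN2. Slc16a5 rose by 1.48 ± 0.26 (adjusted p = 0.00482) and Slc16a10, an aromatic amino acid carrier of the family, by 0.71 ± 0.16 (0.0168). Mpc1, a subunit of the mitochondrial pyruvate carrier, rose by 0.47 ± 0.12 (0.0428), a call lost in most alternatives. Slc16a7, the monocarboxylate carrier MCT2, was at least 3.27-fold lower at DN3 (-2.05 ± 0.36, adjusted p = 0.00476), where Slc16a1 was higher. The mean log2 level of Slc16a7 was above the filter at DN2 only, at 6.42 against 4.37 at DN3 and 3.80 at DN4. Passing the filter in that way by itself makes a fall from DN2 likely. Between DN4 and DN3, 0 were higher and 1 was lower, Slc16a6 (-1.04 ± 0.20, adjusted p = 0.00745). Between DN4 and DN2, 3 were higher and 2 lower, with Slc16a7 at -2.62 ± 0.36 (adjusted p = 2.70e-04, at least 3.27-fold) and Slc16a10 at 0.92 ± 0.16 (0.00115).

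Amino acid transporters outside the 4 above were 38 measured genes with 26 tested. Slc1a4, the relative of Slc1a5 known as ASCT1, was the single call for DN3 against DN2 (0.77 ± 0.15, adjusted p = 0.0104, at least 1.44-fold), where the blocked fit called 5 higher and 2 lower. Between DN4 and DN3 the single call was the lysosomal Slc38a9, a sensor of arginine for mTORC1 that is also counted among the regulators below, which was lower (-1.24 ± 0.20, adjusted p = 0.00271), against 1 higher and 2 lower genes with the block. Between DN4 and DN2, 4 were higher and 3 lower. Slc1a4 rose by 1.16 ± 0.15 (adjusted p = 2.16e-04) and Slc7a6, another light chain partner of CD98, by 0.82 ± 0.14 (9.66e-04). Slc38a1, the glutamine carrier closest to Slc38a2, was lower by -0.56 ± 0.13 (0.00858).

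For iron uptake, storage and export 26 other genes were measured and 21 tested. Between DN3 and DN2, 3 were higher and 1 was lower. Flvcr1, a heme exporter, rose by 0.999 ± 0.15 (adjusted p = 0.00145), and Slc11a2, the endosomal iron carrier DMT1 that acts downstream of the transferrin receptor, by 0.69 ± 0.14 (0.0125). Slc39a14, which carries iron and zinc, rose by 0.83 ± 0.18 (0.0149), a call lost when the gene's probe sets were averaged (0.08, adjusted p = 0.854). Ncoa4, the receptor for autophagy of ferritin, fell by 0.62 (SE 0.13, adjusted p = 0.0117). Between DN4 and DN3 the fit without the block called Slc39a8 (0.50 ± 0.14, adjusted p = 0.0437), whose difference without normalization between arrays was -0.044. The blocked fit called 3 higher, the others being Slc11a2 (0.39, adjusted p = 0.0163) and Slc39a14 (0.54, 0.0381). Between DN4 and DN2, 5 were higher and 5 lower (6 and 7 with the block), with Slc11a2 at 1.08 ± 0.14 (adjusted p = 2.12e-04), Flvcr1 at 1.04 ± 0.15 (3.15e-04) and Ncoa4 at -0.72 ± 0.13 (0.00135).

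Among 28 tested regulators of nutrient transporters, Mycn, a member of the Myc family that drives many of these carriers, was lower at DN4 than at DN3 by -2.10 ± 0.21 (adjusted p = 1.20e-04) and than at DN2 by -2.11 ± 0.21 (2.20e-05). Myc itself was lower at DN4 than at DN2 by -1.40 ± 0.42 (adjusted p = 0.0259 without the block and 0.041 with it). The arrays of these stages overlapped, with 3 sorts lower and 1 higher. Its differences of -0.64 ± 0.42 for DN3 minus DN2 and -0.76 ± 0.42 for DN4 minus DN3 were not called (adjusted p = 0.434 and 0.266). Whether Myc acts on Slc16a1, which was highest at DN4, was not tested. Rragd, a GTPase that recruits mTORC1 to lysosomes, was higher at DN4 than at DN3 by 1.23 ± 0.22 (adjusted p = 0.00429). In that comparison 1 regulator was higher and 3 were lower, against 3 and 6 with the sort as a block. Between DN4 and DN2, 2 were higher and 7 lower (3 and 11 with the block), and between DN3 and DN2, 1 was higher and 1 lower, Foxo1 and Sesn1, with calls lost in most alternatives (1 and 2 with the block).

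**Figure D4:**
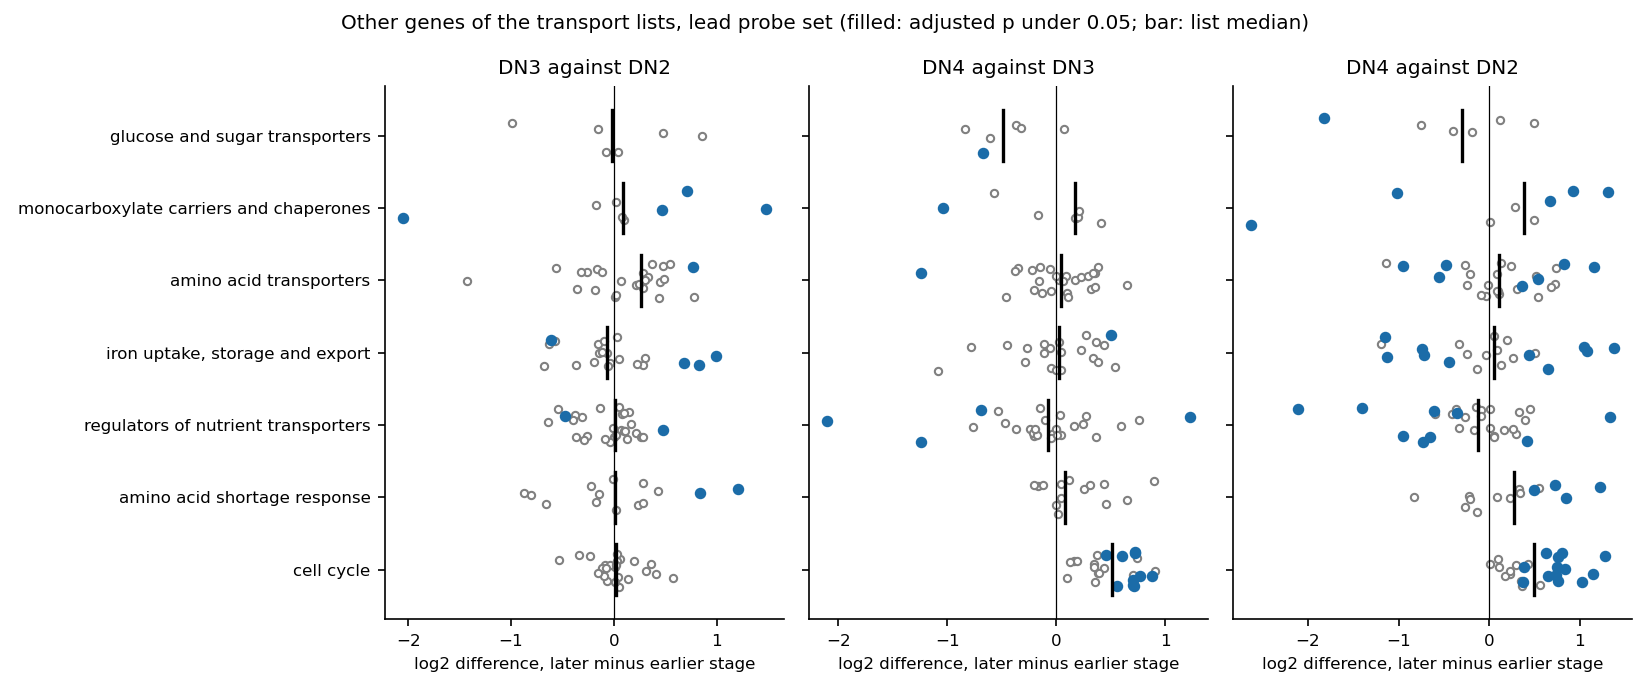
Differences of the tested genes of 7 lists on the log2 scale, later minus earlier stage, by the brightest probe set; each point is a gene, filled where the adjusted p is under 0.05, and the thick bar is the list's median. Cell cycle genes lie above 0 in the panel of DN4 against DN3, where 10 of 24 are filled, while the transport lists hold points on both sides.

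Transcripts of CD44 and CD25, which set the stages, followed the labels. Cd44 ran at 428 to 1059 at DN2, 34.2 to 64.1 at DN3 and 25.5 to 69.6 at DN4, and Il2ra, which encodes CD25, at 2196 to 2553, 1155 to 1535 and 68.5 to 170 in the same order. Of the genes for CD4 and CD8, which were gated out, Cd4 was below the filter on all 12 arrays. Cd8b1 ran at 0.73 to 8.9, 11.6 to 31.0 and 241 to 424, and Cd8a at 15.3 to 33.1, 23.1 to 45.3 and 56.0 to 88.1. What this CD8 signal at DN4 means for the DN4 values of the carriers was not tested. Genes listed as markers of other cells also moved with the stages. The mast cell sum was 2750 to 3796 at DN2, 82.8 to 240 at DN3 and 50.4 to 75.3 at DN4. Cpa3 carried it, at 2721 to 3765 at DN2. Mcpt4, Fcer1a and Ms4a2 were below the filter everywhere, and Tpsb2 and Cma1 were below it at DN2. The sum at DN2 is therefore the signal of 1 gene and does not show that mast cells were present. The myeloid sum over 12 markers was 1096 to 1937, 425 to 533 and 139 to 274 in the same order, with Itgam below the filter everywhere. Lyz1, Lyz2 and Mpo carried most of it, and Csf1r ran the other way, at 25.8 to 41.8, 34.6 to 53.7 and 45.1 to 52.2. The natural killer sum was 172 to 355, 16.6 to 45.1 and 20.3 to 47.7, carried by Tyrobp, with Ncr1 and Klra1 below the filter everywhere. That of thymic epithelium and stroma was 840 to 1114, 403 to 549 and 195 to 311. Pdgfrb carried most of it, and Psmb11, Col1a1, Col3a1 and Cdh5 were below the filter everywhere. Krt8 did not follow that order, at 4.8 to 39.7, 4.1 to 13.4 and 20.4 to 42.1. The B cell sum, nearly all Ighm, was 2281 to 3553, 2835 to 3084 and 4494 to 4877. Cd79b ran the other way, at 141 to 219, 144 to 181 and 98.9 to 141, as did Vpreb1, at 33.1 to 50.6, 9.75 to 35.5 and 1.85 to 19.9. The median DN4 minus DN2 difference of the 6 tested B cell markers was -0.19. The part of any such other cells in the transporter values was not tested. Median deposited signal was 16.7 to 28.1 at DN2, 19.8 to 25.8 at DN3 and 15.2 to 18.1 at DN4, and the log2 ratio of 3′ to 5′ Gapdh signal was 1.10 to 1.82, 0.88 to 1.26 and 1.02 to 1.46. Only 4 arrays a stage limit the precision of every value.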

How the data were processed

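Sorted DN4, DN3 and DN2 thymocytes were hybridised to Affymetrix mouse arrays, 4 a stage. The authors deposited linear intensity values, 1 a probe set and array. GCOS, Affymetrix's software, produced them per the submitters' processing notes, and the sources used here do not give its version, algorithm or scaling. Per the labels' protocols, cDNA synthesis was run in more than one cycle before labelling, which favours 3′ ends.

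Arrays were quantile normalized, an offset of 5.69 (the 25th percentile of the normalized signal) was added and log2 taken. Probe sets above the table's median (20.6) on at least 4 arrays were kept, without 64 control probe sets. limma 3.58.1 in R 4.3.3 fitted stage means over all 12 arrays, with Benjamini-Hochberg adjustment over 24107 probe sets. Folds are on this offset scale, and where the lower stage lay below the filter they are bounds against it. Symbols came from the platform annotation (34958 probe sets with 1 symbol, 932 with several, 9211 with none), 34754 of them updated to RefSeq of GRCm38.p6.

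The labels state that arrays of the same sort number share their cell source, so the numbers pair the samples; deviations from stage means correlated at 0.25 to 0.391 within a sort and at most 0.143 between sorts. The fit without the sort is the main one, and the blocked value is given where it changes a call of a named carrier, or as a count for a list. P-values measure the spread between sorts of pooled mice. No 2 arrays were identical.

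All member probe sets are named, with up to 4 called genes per list and comparison, the 3 genes most correlated with each called member, and the brightest markers. Myc was named in addition because of the motif. Members and lists were chosen with earlier results of these data known. Tested on simulated data for DN3 against DN2 with 24107 probe sets, the fit recovered 10%, 46% and 88% of seeded log2 differences of 0.5, 1 and 2, with 9 false calls among 23907 unchanged probe sets. The simulated arrays were drawn independently, without the shared sorts of the real arrays, and few probe sets were changed. These shares therefore need not hold for the real data. Alternatives changed the normalization, offset, filter, fit, gene summary, sorts used and each replicate in turn. Figures and sequences used Python 3.11.15, pandas 2.3.3 and matplotlib 3.10.9.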

Additional observations from a re-analysis of the deposited data

Results flagged for a closer look

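Single arrays stood apart from the other 3 of their stage in 5 of the 63 sets of 4 examined, by a gap to the nearest array, as a share of the stage's range, above Dixon's 95% critical value. Chance sets apart about 1 in 20. Slc2a1 on 1426600_at had 239 in DN3 replicate 2 against 192 to 199 in the others (0.845). Slc2a3 on 1455898_x_at had 295 in DN4 replicate 1 against 248 to 255 (0.837). Slc16a1 on 1415802_at had 3810 in DN4 replicate 4 against 3163 to 3205 (0.929), and on 1446274_at 43.0 in DN3 replicate 2 against 20.0 to 21.9 (0.888). Tfrc on 1422966_a_at had 113 in DN3 replicate 4 against 122 to 124 (0.837).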

How the results depend on the processing

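The main counts of called transporter probe sets were 5 for DN3 against DN2, 3 for DN4 against DN3 and 5 for DN4 against DN2. With the sort as a replicate block, which the shared cell source warrants, they were 6, 5 and 10; the 8 calls of carriers that this pairing changed are given with their genes, and it changed no other call of theirs. Leaving out 1 replicate gave 5 to 5, 2 to 4 and 3 to 6, the 3 without DN2 replicate 4. Without normalization between arrays 7 were called for DN4 against DN3, with Slc7a5 at -0.96 and Slc3a2 at -0.68. A filter at the 75th percentile gave 1, 0 and 2 of 13 tested. One probe set a gene, the brightest, gave 2, 1 and 2 of 9 genes, and the mean of probe sets 2, 1 and 4, Slc2a1 passing there for DN4 against DN2 (0.37, adjusted p = 0.0454). Sorts 1 and 2 alone gave 1, 0 and 2, and sorts 3 and 4 alone 2, 0 and 4; with fewer sorts the tests have fewer samples.

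Of 288 recomputed differences that were called, 266 kept direction and call and 22 lost the call. Of 550 not called, 521 kept direction and stayed so, 6 passed in the same direction and 23 turned sign. Among those that turned sign, Tfrc for DN4 against DN2 with the mean of probe sets also passed. The shift of the median of all tested probe sets was 0.03, 0.03 and 0.05 with quantile normalization, 0.09, -0.05 and 0.02 with median centring, and 0.13, -0.44 and -0.32 without normalization in the same order of comparisons. Over all probe sets, 1066 were called higher and 1647 lower for DN4 against DN3, against 524 and 2119 with median centring and 54 and 5129 without normalization; for DN4 against DN2 these were 3397 and 3152, and 419 and 4874 without normalization. Signs turned with median centring for Slc38a2 (0.023 for DN3 against DN2, 0.10 for DN4 against DN3, 0.12 for DN4 against DN2), Slc2a3 (0.0034 for DN3 against DN2) and the brightest Tfrc probe set (0.065 for DN4 against DN2). Without normalization they turned for DN3 against DN2 in Slc1a5 (0.039), Slc38a2 (0.064) and Slc2a3 (0.044), for DN4 against DN3 in Slc1a5 (-0.25), Tfrc (-0.13) and Slc39a8 (-0.044), and for DN4 against DN2 in Slc1a5 (-0.22) and Slc2a1 (-0.076). With the mean of probe sets they turned for DN3 against DN2 in Slc1a5 (0.0082), Slc2a3 (0.24) and Tfrc (0.014), for DN4 against DN3 in Slc2a1 (0.032), and for DN4 against DN2 in Slc2a3 (0.028) and Tfrc (0.41, adjusted p = 0.046). For DN3 against DN2 they turned in sorts 1 and 2 for Slc3a2 (-0.072) and in sorts 3 and 4 for Slc1a5 (0.13). Leaving out 1 replicate gave -0.035 to 0.235 for Slc3a2 and -0.181 to 0.0031 for Slc2a3 in that comparison, and -0.078 to 0.0084 for Slc2a1 in DN4 against DN3. Causes were not tested. Signals under the filter of 20.6 limit what can be said of Slc16a3 and of the DN2 level of Slc5a9.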

Other observations

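Of 24 tested cell cycle genes, 10 were higher, 0 lower and 14 not called at DN4 against DN3, among them Ccnb2 by 0.88 ± 0.16 (adjusted p = 0.00546) and Ccna2 by 0.70 ± 0.15 (0.0139), with a median of 0.51 over the list against 0.05 over all genes. With the sort as a block 16 were higher, a fit that called 10.8% of all tested probe sets higher there. The shares for all counts here are those given with the transport lists. Between DN3 and DN2, 0 were called by limma, against 1 lower at an unadjusted p under 0.05 and 1 higher and 1 lower with the block. Genes induced when amino acids are short, or that make amino acids, had 4 of 14 higher and 0 lower at DN4 than at DN2 (6 and 0 with the block), with Sars, a tRNA ligase for serine, at 0.72 ± 0.14 (adjusted p = 0.00212) and Psat1, an enzyme of serine synthesis, at 0.49 ± 0.12 (0.0108). Between DN3 and DN2, 2 were higher (3 higher and 1 lower with the block), Ppp1r15a by 0.84 ± 0.18 (0.0141) and Eif2ak3 by 1.21 ± 0.33 (0.0443), the call on Eif2ak3 being lost in most alternatives.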
